A study of Mus musculus with 6 samples.

Results

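Dendritic cells of the mouse genioglossus, a muscle of the tongue whose contraction widens the upper airway, were taken from droplet single-cell RNA sequencing as the barcodes that carried dendritic marker transcripts and MHC class II transcripts and lacked those of macrophages, lymphocytes and endothelium. A barcode with 300 or more genes was a member when its raw UMIs of Flt3, Cd209a, Xcr1, Clec9a, Ccr7, Fscn1 and Siglech summed to 2 or more, those of H2-Aa, H2-Ab1, H2-Eb1 and Cd74 to 5 or more, Ptprc to 1 or more, C1qa, C1qb and C1qc to 2 or fewer, and Cd79a, Cd3e and Cdh5 to 0. The rule found 104 members among 56309 barcodes. The members were thus chosen by the measured counts of these genes, whose values are a description and were not tested.

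Samples came from male mice of 2 groups, the model of obstructive sleep apnea (OSA, labelled OSA-4W in the study's design) and the control group, both collected at week 4 and all labelled batch 1. Each group had 3 libraries of dissociated genioglossus labelled as skeletal muscle cells and primary tissue. The labels give no strain, age or genotype, no account of how the model was made, and no statement that each library was a separate animal, so every p-value here measures the spread between libraries. Counts of all 3 OSA replicates and of control replicate 2 were read. Counts of the other 2 control replicates were not analysed here. With 3 OSA libraries against 1 control library, an exact permutation test cannot give a p below 0.25.

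Dendritic cells sample their surroundings, load peptides onto MHC class II and show them to T cells. Conventional type 1 cells (cDC1) depend on IRF8 and BATF3 and are known for cross-presentation to CD8 T cells, and conventional type 2 cells (cDC2) mainly prime CD4 T cells. Mature dendritic cells switch on CCR7, which guides them into lymphatic vessels, and plasmacytoid dendritic cells (pDC) are specialised makers of type I interferon. In skeletal muscle these cells are a small part of the leukocytes that lie between the fibres.

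The libraries were alike in depth but not in cell make-up. Medians were 3896, 4889 and 4583 UMIs per barcode in OSA replicates 1, 2 and 3 and 4119 in the control. Pecam1, an endothelial marker, was found in 64.3%, 61.2% and 47.9% of OSA barcodes and 59.8% of control barcodes, and Acta1, the skeletal muscle actin, in 10.8%, 23.3% and 7.35% of OSA barcodes and 8.74% of control barcodes, so the libraries were not mainly of muscle cells. Leukocyte barcodes with a UMI of Ptprc, which encodes CD45, numbered 767, 962 and 1347 in the OSA libraries and 421 in the control. Any pair of the 6 libraries shared 41 to 67 barcode sequences, at most 0.468% of the smaller list, and no member was shared between the 4 libraries read.

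Members made up a small share of every library, and the OSA shares were all above the control share. There were 16 members of 15714 barcodes in OSA replicate 1 (0.102%, exact binomial 95% interval 0.0582 to 0.165), 30 of 12587 in OSA replicate 2 (0.238%, 0.161 to 0.340), 52 of 14310 in OSA replicate 3 (0.363%, 0.272 to 0.476) and 6 of 13698 in the control (0.0438%, 0.0161 to 0.0953). The intervals cover counting error only. The OSA libraries averaged 0.235% ± 0.131 (SD, n = 3), which is 0.191 percentage points above the control library (exact permutation test over libraries, two-sided, p = 0.5). The OSA libraries differed among themselves by more than OSA replicate 1 differed from the control, whose interval overlaps that of OSA replicate 1.

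The ratio of OSA to control was 5.35 among all barcodes and 2.12 among leukocytes. Among barcodes with a Ptprc UMI, members were 2.09%, 3.12% and 3.86% in the OSA libraries and 1.43% in the control, a difference of 1.60 percentage points (exact permutation test, two-sided, p = 0.5). Against all myeloid barcodes caught by this gate and by macrophage and monocyte gates, members were 7.88%, 22.2% and 9.40% in the OSA libraries and 6.74% in the control. For every 100 macrophage barcodes members numbered 35.7 in OSA replicate 2, 11 and 12.6 in OSA replicates 1 and 3 and 9.68 in the control, so OSA replicate 2 stood apart. With every barcode thinned to 2000 UMIs, which left out shallower barcodes, the shares of all barcodes were 0.0473%, 0.0755% and 0.143% in the OSA libraries, and the control had 0 members of 10970 barcodes (95% interval up to 0.0336%).

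**Figure D1:**
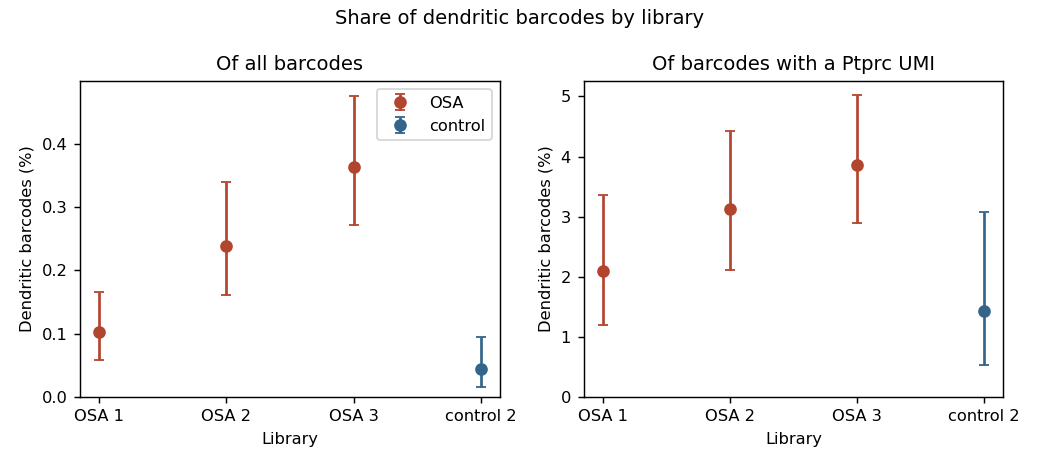
Share of dendritic barcodes in each library, as a percent of all barcodes (left) and of barcodes with a Ptprc UMI (right), with exact binomial 95% intervals. The 3 OSA libraries lie between 0.102% and 0.363% of all barcodes and the control library lies at 0.0438%. The control interval overlaps that of OSA replicate 1 in the left panel and those of all 3 OSA libraries in the right panel.

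Members were deeply sequenced barcodes. Their median was 14486, 11223 and 8377 UMIs in the OSA libraries and 12615 in the control. Scrublet called 2, 0 and 4 OSA members and 1 control member doublets. These were 12.5%, 0% and 7.69% of OSA members and 16.7% of control members. Of all barcodes it called 3.16%, 2.84% and 4.01% in the OSA libraries and 3.09% in the control. Members held 2 or more marker UMIs by rule. Just inside that limit were 3, 4 and 8 OSA members and 1 control member with a sum of 2, and just outside it were 4, 6 and 10 OSA barcodes and 9 control barcodes with a sum of 1 that met every other limit. A C1q sum of 1 or 2 was found in 8, 6 and 31 OSA members and 3 control members, and 1, 1 and 5 OSA barcodes and 0 control barcodes lay just outside that limit with a sum of 3 or 4. The class II sum had a median of 546, 384 and 412.5 UMIs per OSA member and 602.5 per control member, against a limit of 5. A class II sum of 5 to 20 was found in 2, 1 and 3 OSA members and 0 control members. With a sum under 5, 8, 8 and 9 OSA barcodes and 4 control barcodes met every other limit.

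Free RNA in the droplets was gauged in endothelial barcodes, which had Cdh5 and Pecam1 UMIs and no Ptprc UMI. Their median was 4038, 4847 and 4392.5 UMIs in the OSA libraries and 4167 in the control, under that of members. Flt3, the receptor for the dendritic growth factor FLT3 ligand, was found in 33.3% to 69.2% of members by library and in 0.0648% to 0.230% of endothelial barcodes. Cd209a was found in 37.5% to 83.3% of members and in 0.0547% to 0.205% of endothelial barcodes. Fscn1, an actin-bundling protein of mature dendritic cells, did not separate the types, with 11.5% to 33.3% of members and 38.9% to 45.0% of endothelial barcodes. Whether Fscn1 there was free RNA or the endothelial cells' own was not tested. Without Fscn1 in the sum, 1 control member and 0 OSA members would fall under the limit of 2. H2-Aa was found in 100% of members and in 5.18% to 15.8% of endothelial barcodes. In counts summed over members, Flt3 was 164, 183 and 243 CPM in the OSA libraries and 46 CPM in the control, and Ccr7 was 224, 342 and 258 CPM in the OSA libraries and 23.0 CPM in the control. Cd209a went the other way, at 164, 169 and 237 CPM in the OSA libraries and 345 CPM in the control. In the control, 2 of 6 members had a Flt3 UMI and 1 had a Ccr7 UMI. The rule chose members by these genes, so their levels were not tested between the groups. Cd209a also defines the cDC2-like subtype below. Over all members, 69 of 104 had a Flt3 UMI, 48 Cd209a, 27 Ccr7, 15 Clec9a, 7 Siglech and 5 Xcr1.

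Some members also held transcripts of other cell types, and they weighed most in the control. Members with 50 or more UMIs of the fibroblast, Schwann, mural and muscle marker lists together, or 20 or more of the T and NK cell list, numbered 2, 0 and 5 in the OSA libraries and 2 of 6 in the control. All 10 fibroblast markers had UMIs in the members of every library, with summed levels of 1741, 1084 and 2835 CPM in the OSA libraries and 6266 CPM in the control. In the control, 1 member called a doublet held 435 fibroblast UMIs, and another held 73 Schwann UMIs. Schwann markers summed to 297, 194 and 218 CPM in OSA members and 1138 CPM in control members. Of the 9 neutrophil markers, 3, 7 and 3 were detected in OSA members and 2 in control members, with sums of 34.5, 627 and 32.0 CPM in the OSA libraries and 23.0 CPM in the control.

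The members split into subtypes by the highest of 4 sums of the same marker genes: Xcr1 and Clec9a for cDC1-like, Cd209a for cDC2-like, Ccr7 and Fscn1 for mature-like, and Siglech for pDC-like. There were 12 cDC1-like, 46 cDC2-like, 26 mature-like and 6 pDC-like members, and 14 with a tie or no such UMI were unresolved. At full depth the cDC2-like members were the largest subtype in each library, with 6 of 16, 15 of 30 and 21 of 52 in the OSA libraries and 4 of 6 in the control. The mature-like members were 4, 7 and 14 in the OSA libraries and 1 in the control. With barcodes thinned to 2000 UMIs, cDC2-like members were 2, 4 and 15 in the OSA libraries and 4 in the control, and mature-like members 3, 5 and 9 in the OSA libraries and 1 in the control, so the order of these subtypes turned in OSA replicates 1 and 2. The cDC1-like members were 4 in each OSA library and 0 in the control, and the pDC-like members were 0, 2 and 4 in the OSA libraries and 0 in the control. With 6 control members, a subtype with 0 members there may still have a share of up to 45.9% (exact 95% interval), so the absence of a subtype was not detectable at this depth.

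**Figure D2:**
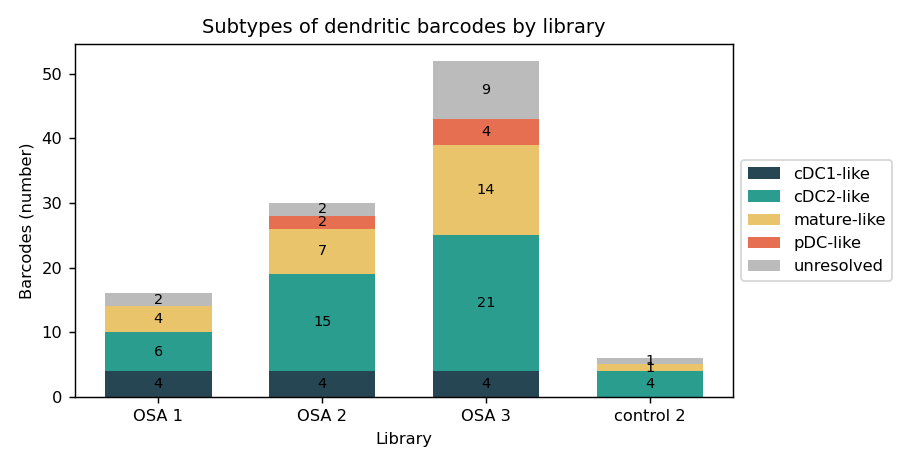
Number of dendritic barcodes of each subtype in each library, stacked, with the number written in each block. At full depth the cDC2-like block is the largest in every library, and the control column holds 6 barcodes against 16, 30 and 52 in the OSA columns.

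Averaged over the OSA libraries, 42.6% ± 6.55 of members were cDC2-like, 25.1% ± 1.80 mature-like, 15.3% ± 8.83 cDC1-like and 4.79% ± 4.18 pDC-like (SD, n = 3), and the control library had 66.7%, 16.7%, 0% and 0% of these. No subtype reached 50 members, so no test was made between the groups, and too few libraries held 5 members of 2 subtypes for a gene test between them. The marker levels of the subtypes are therefore pooled over libraries and described without a test.

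The 12 cDC1-like members carried the cDC1 programme in genes that the rule did not use. Irf8, the transcription factor that drives this lineage, stood at 704 CPM of summed counts and was found in 11 of 12 members. Wdfy4, needed for cross-presentation, stood at 636 CPM, Naaa, a lysosomal amidase, at 609 CPM, Cadm1, an adhesion molecule, at 397 CPM and Septin3 at 260 CPM. Batf3, the partner of IRF8 in cDC1 development, stood at 212 CPM. In the 46 cDC2-like members the same genes lay at 35.5 CPM for Irf8, 101 for Wdfy4, 127 for Naaa, 13.1 for Cadm1, 18.7 for Septin3 and 127 for Batf3. Cst3, the cysteine protease inhibitor cystatin C, reached 14256 CPM in cDC1-like members against 3269 CPM in cDC2-like members. Irf8 was high in cDC1-like members of each OSA library, at 515, 619 and 1209 CPM. All 12 genes of the cDC1 list summed to 4027 CPM in cDC1-like and 701 CPM in cDC2-like members. They summed to 1537 CPM in mature-like, 1285 CPM in pDC-like and 905 CPM in unresolved members.

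The 46 cDC2-like members carried lectins and myeloid genes of cDC2. Mgl2, a galactose-type lectin of dermal and muscle cDC2, stood at 471 CPM and was found in 35 of 46 members, and 0 UMIs of it were found in the 12 cDC1-like members. Clec10a, its close paralog, stood at 209 CPM, Itgam, the integrin chain CD11b, at 140 CPM, Sirpa, which binds CD47, at 140 CPM, and Zeb2, a repressor of the cDC1 fate, at 583 CPM. In cDC1-like members these were at 0 CPM for Clec10a, 27.3 for Itgam, 6.8 for Sirpa and 13.7 for Zeb2. All 12 genes of the cDC2 list summed to 1969 CPM in cDC2-like and 301 CPM in cDC1-like members. They summed to 1389 CPM in pDC-like, 1080 CPM in unresolved and 1012 CPM in mature-like members, so the other subtypes lay nearer than cDC1-like. Mgl2 in cDC2-like members was 262, 625 and 395 CPM in the OSA libraries and 519 CPM in the control, so the control lay inside the OSA range. Beyond the cDC2 markers, Tnip3 (254 CPM, 33 of 46 members), Batf and Bcl6 were among the genes highest in this subtype relative to the other members.

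The 26 mature-like members were mixed. Ccl22, which draws CCR4-bearing T cells, stood at 944 CPM and was found in 13 of 26 members. Il4i1, an amino acid oxidase that restrains T cells, stood at 348 CPM (16 of 26), Cacnb3, a calcium channel subunit, at 334 CPM (14 of 26), Relb, the NF-kB subunit tied to dendritic maturation, at 474 CPM and Cd274, which encodes PD-L1, at 334 CPM. Ccr7, which with Fscn1 defines this subtype, was found in all 26 members. By library, Ccl22 in mature-like members was 18.0, 1910 and 673 CPM in OSA replicates 1, 2 and 3 and 664 CPM in the 1 control member, so OSA replicate 1 had the lowest level. That control member is the one rich in Schwann transcripts. Ccl5, a chemokine that T and NK cells also make, stood at 3278 CPM in mature-like members, of which 1 in OSA replicate 1 held 32 UMIs of T and NK cell markers. Il12b, a subunit of the interleukins that drive type 1 and type 17 responses, had UMIs in 5 of 26 mature-like members and 1 cDC1-like member.

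The 6 pDC-like members came from OSA replicates 2 and 3. Bst2 stood at 2156 CPM, Tcf4, the master regulator of pDC, at 1804 CPM, Ly6d at 1472 CPM and Irf8 at 974 CPM, each in 6 of 6 members. Klk1 (1161 CPM) and the chemokine receptor gene Ccr9 (311 CPM) were found in 5 of 6 pDC-like members and in 0 other members. Their class II sum had a median of 54.5 UMIs, against 578 in cDC1-like, 522 in cDC2-like and 303 in mature-like members. Ciita, the class II transactivator, Zbtb46, a factor of conventional dendritic cells, and Batf3 had 0 UMIs in them.

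**Figure D3:**
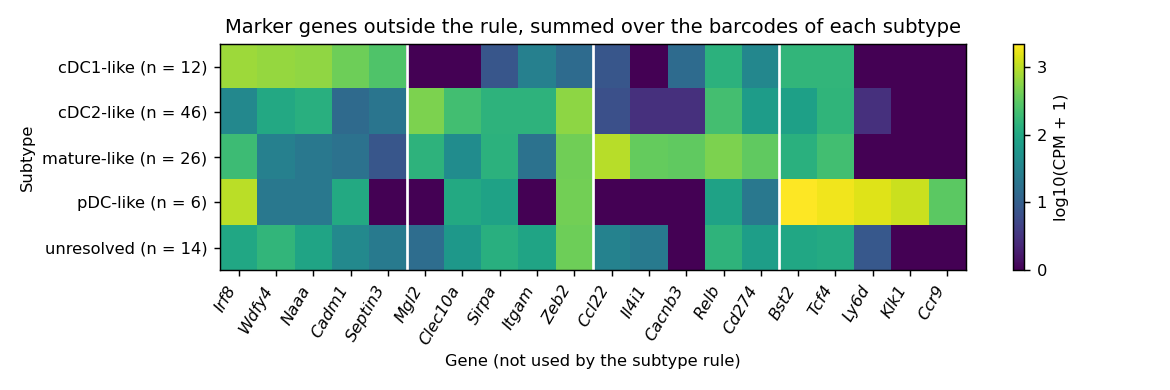
Level of 20 marker genes that the subtype rule did not use, as log10(CPM + 1) of counts summed over all barcodes of a subtype, with subtypes in rows and genes in columns. The blocks along the diagonal are bright: Irf8 to Septin3 in cDC1-like, Mgl2 to Zeb2 in cDC2-like, Ccl22 to Cd274 in mature-like and Bst2 to Ccr9 in pDC-like members, with Zeb2 also high outside cDC2-like members and Irf8 highest in pDC-like members.

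Of the 14 unresolved members, 13 had Flt3 UMIs, and none of the 4 sums led. The Flt3 count follows largely from the rule, since a member with no UMI of the other markers enters only through Flt3. Their levels of Irf8 (94.9 CPM), Mgl2 (14.6 CPM) and Ccl22 (29.2 CPM) were below those of the subtypes named for them. Across all members, 18 had a UMI of Mki67 or Top2a, genes of dividing cells.

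Members were next set against macrophages of the same libraries, the other cells that show MHC class II. The macrophage gate had the same limits on class II, Ptprc, Cd79a, Cd3e and Cdh5, 3 or more C1q UMIs and at most 1 dendritic marker UMI, and held 146, 84 and 414 barcodes in the OSA libraries and 62 in the control. Counts were summed per library and gate and tested with edgeR's quasi-likelihood test with library as a block, with Benjamini-Hochberg adjustment over all genes and a threshold of 0.05. Of 6015 genes tested outside the gates, 1015 passed (16.9%), 484 higher (8.05%) and 531 lower (8.83%) in dendritic than in macrophage barcodes. Without OSA replicate 1 the count was 505. A filter on low counts came before the test and kept a gene that was high enough in the sums of 1 gate alone. The log2 changes below are those of dendritic over macrophage barcodes with the SE of the fit, and CPM are TMM-scaled.

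The machinery that loads peptides onto class II was higher in dendritic barcodes. Both gates had the same class II minimum, but their class II levels above it were not matched. Of the 12 genes of the class II processing list, 10 were tested, 7 were higher and 2 lower, with a median log2 change of 1.34 against -0.02 for all genes tested. Ciita was 78.7, 125 and 147 CPM in dendritic barcodes of the OSA libraries and 99.4 CPM in those of the control, against 30.1, 52.5 and 27.0 CPM in OSA macrophages and 72.1 CPM in control macrophages (log2 change 1.54 ± 0.31, edgeR adjusted p = 0.00278). Dendritic barcodes were above macrophages of their own library in all 4 libraries. H2-Oa and H2-Ob encode the DO heterodimer, which holds the peptide editor DM in check. H2-Oa averaged 41.4 ± 15.9 CPM in dendritic and 1.94 ± 2.89 CPM in macrophage barcodes (SD, n = 4 libraries each; log2 change 5.53 ± 0.73, edgeR adjusted p = 0.000145). H2-Ob averaged 57.6 ± 14.7 CPM in dendritic and 4.91 ± 2.96 CPM in macrophage barcodes (log2 change 3.85 ± 0.47, edgeR adjusted p = 4.83e-05). H2-Oa and H2-Ob passed the filter on low counts only through their dendritic sums, so their direction was fixed before the test. Both are part of the list count and median above.

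The DM genes themselves were also higher. H2-DMb2 averaged 114 ± 50.3 CPM in dendritic and 20.5 ± 19.5 CPM in macrophage barcodes (log2 change 2.81 ± 0.34). H2-DMb1 and H2-DMa were 1.15 ± 0.29 and 0.98 ± 0.22 higher on the log2 scale, with 705 ± 86.1 and 709 ± 122 CPM in dendritic and 357 ± 168 and 413 ± 255 CPM in macrophage barcodes. H2-DMb1 and H2-DMb2 are near copies of each other, so reads may have been split between them. Without OSA replicate 1 the calls of H2-DMa and H2-DMb1 were lost (edgeR adjusted p = 0.0744 and 0.110), and that of H2-DMb1 also without OSA replicate 2 (edgeR adjusted p = 0.051). Ifi30, the lysosomal thiol reductase GILT, was 1.64 ± 0.17 higher. Ctss, the cathepsin that trims the invariant chain, and Lgmn, asparagine endopeptidase, were lower by log2 changes of -0.88 ± 0.15 and -2.11 ± 0.22.

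The start-site windows of 4 of these genes are shown because the genes were higher together and because class II genes are known to share a promoter element, the Y box, which holds an inverted CCAAT. The letters GATTGG, on the strand of the gene, are in capitals. Sequences are from RefSeq, build GRCm38.p6, 5′ to 3′ on the plus strand: chr17:34092255-34092360 for H2-Oa, chr17:34238767-34238872 for H2-Ob, chr17:34145078-34145183 for H2-DMb2 and chr17:34153049-34153154 for H2-DMb1.
H2-Oa: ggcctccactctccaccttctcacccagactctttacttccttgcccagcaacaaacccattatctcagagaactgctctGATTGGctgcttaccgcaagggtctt
H2-Ob: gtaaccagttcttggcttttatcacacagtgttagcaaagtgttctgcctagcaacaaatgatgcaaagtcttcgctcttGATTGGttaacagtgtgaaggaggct
H2-DMb2: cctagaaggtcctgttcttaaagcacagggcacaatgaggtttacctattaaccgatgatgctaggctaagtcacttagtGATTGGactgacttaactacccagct
H2-DMb1: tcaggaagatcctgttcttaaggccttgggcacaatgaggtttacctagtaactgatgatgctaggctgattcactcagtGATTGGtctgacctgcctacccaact

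The motif begins 44, 58, 91 and 62 bases before the annotated start of H2-Oa, H2-Ob, H2-DMb2 and H2-DMb1. It was searched as GATTGG and, for the other strand, CCAATC, in windows of 250 bases before to 50 bases after each start. Of 9 class II genes looked up 7 had an entry, and H2-Aa and H2-Eb1, which the rule used, hold the motif 49 and 60 bases before their starts. H2-DMa has 2 entries, of which the second holds it 199 bases before its start. Of all 32851 windows 16.1% hold it on either strand and 8.71% on the strand of the gene. A match is a run of letters and not a measured binding site.

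Of the 18 transcription factors listed 16 were tested, and 7 were higher (Batf3, Bcl11a, Bcl6, Cbfa2t3, Irf8, Relb and Runx3) and Zeb2 lower. The call of Batf3 was lost without OSA replicate 1 or 3 (edgeR adjusted p = 0.0706 and 0.0542), and that of Zeb2 without OSA replicate 1, 2 or 3 (0.0788, 0.0552 and 0.134). Bcl11a, a zinc-finger factor, averaged 37.6 ± 14.2 CPM in dendritic and 1.79 ± 1.24 CPM in macrophage barcodes (log2 change 3.95 ± 0.58). It passed the filter on low counts only through its dendritic sums, so its direction was fixed before the test. Irf8 averaged 198 ± 90.4 CPM in dendritic and 89.4 ± 33.4 CPM in macrophage barcodes (log2 change 1.20 ± 0.27), and its call was lost without OSA replicate 1 (edgeR adjusted p = 0.110) or 2 (0.051). Psmb8 and Psmb9, subunits of the immunoproteasome, and Tap1, a peptide transporter, were 1.65 ± 0.21, 1.63 ± 0.26 and 1.60 ± 0.31 higher on the log2 scale, the 3 of 13 tested genes of the class I list that passed. Cd80, Cd40 and Cd274, which signal to T cells, were the 3 of 7 tested costimulation and inhibition genes that were higher, with log2 changes of 1.59 ± 0.29, 1.30 ± 0.30 and 0.96 ± 0.25. The call of Cd40 was lost without OSA replicate 3 (edgeR adjusted p = 0.078), and that of Cd274 without OSA replicate 1 or 2 (0.0796 and 0.166).

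The subtype lists differed in how they set members apart from macrophages. Members were chosen by dendritic marker UMIs, of which macrophage barcodes had at most 1, so these lists are tied to the choice of the members. Of 9 tested markers of conventional dendritic cells, 7 were higher and 0 lower. Cst3 averaged 5609 ± 1677 CPM in dendritic and 2115 ± 737 CPM in macrophage barcodes (log2 change 1.41 ± 0.20), and Olfm1, a secreted olfactomedin, was 1.85 ± 0.22 higher. Of 7 tested cDC1 markers, 5 were higher (Batf3, Cadm1, Irf8, Naaa and Wdfy4) and Rab7b was lower. Of 8 tested cDC2 markers, 0 were higher and 4 were lower (Clec4a2, Itgam, Sirpa and Zeb2), myeloid genes that macrophages also carry. When OSA replicate 1 was left out, 2 of the 6 cDC1 calls and 0 of the 4 cDC2 calls held, and when OSA replicate 3 was, 3 and 2 of them held. Sirpa was 41.7, 178 and 140 CPM in OSA dendritic barcodes and 49.7 CPM in control dendritic barcodes, against 256, 273 and 296 CPM in OSA macrophages and 241 CPM in control macrophages (log2 change -1.37 ± 0.29, edgeR adjusted p = 0.00571), so every dendritic value lay under every macrophage value. The call of Sirpa was lost without OSA replicate 1 (edgeR adjusted p = 0.0504), and that of Cst3 with the C1q sum held at 0 (0.129) and without the members rich in other cell types' markers (0.128).

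Of 10 tested growth factor receptors, Csf2rb and Il1r2 were higher and Csf1r and Tgfbr1 lower. The call of Tgfbr1 was lost without OSA replicate 1 or 3 (edgeR adjusted p = 0.206 and 0.263) and without the control (0.084). Csf2rb, the shared signalling chain of the GM-CSF receptor, was 0.85 ± 0.20 higher on the log2 scale, and its call was lost without OSA replicate 1 or 2 (edgeR adjusted p = 0.0525 and 0.06). Csf1r, the receptor that macrophages need for survival, averaged 164 ± 106 CPM in dendritic and 918 ± 167 CPM in macrophage barcodes (log2 change -2.56 ± 0.28). Cd14, the co-receptor for lipopolysaccharide, was lower by a log2 change of -1.70 ± 0.23, and with Tlr2 made up the 2 of 8 tested pattern recognition genes that passed. The call of Tlr2 was lost without OSA replicate 1 or 3 (edgeR adjusted p = 0.194 and 0.152). Of 13 tested NF-kB genes, Rel, Relb and Traf1 were higher and 0 lower, and Rel averaged 727 ± 141 CPM in dendritic and 340 ± 92.7 CPM in macrophage barcodes.

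Among the genes named by rank, Il1r2, the decoy receptor for interleukin 1, was 176, 147 and 230 CPM in OSA dendritic barcodes and 37.3 CPM in those of the control, and 4.31, 13.1 and 3.93 CPM in OSA macrophages and 0 CPM in control macrophages (log2 change 5.05 ± 0.42, edgeR adjusted p = 3.88e-06). Each dendritic value was above all 4 macrophage values. Il1r2 passed the filter on low counts only through its dendritic sums, so its direction was fixed before the test. Itgb7, an integrin beta chain, Cytip, which regulates integrin adhesion, Traf1, a TNF receptor adaptor, Jak2, a cytokine receptor kinase, and Napsa, an aspartic protease, were higher by log2 changes of 2.69 to 3.04. Cacnb3 and Il4i1, of the mature dendritic list, were 5.71 ± 0.58 and 3.95 ± 0.46 higher. Of 11 tested genes of that list 8 were higher and 0 lower, and 5 of these stayed called without OSA replicate 1 or 3. The rule chose members by Ccr7 and Fscn1 among others, so this list too is tied to the choice of the members.

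Il1b, which encodes interleukin 1 beta, averaged 1005 ± 565 CPM in dendritic and 181 ± 88.8 CPM in macrophage barcodes (log2 change 2.42 ± 0.22, edgeR adjusted p = 6.64e-06). Other inflammatory genes went the opposite way. Cxcl2, a chemokine for neutrophils, averaged 655 ± 377 CPM in dendritic and 4519 ± 967 CPM in macrophage barcodes (log2 change -2.90 ± 0.49, edgeR adjusted p = 0.0316). Its call was lost without OSA replicate 2 or 3 (edgeR adjusted p = 0.171 and 0.0727) and with the C1q sum held at 0 (0.105). Of 12 chemokine and receptor genes tested, 6 were lower (Ccl2, Ccl3, Ccl6, Ccl9, Cx3cr1 and Cxcl2) and 0 higher, and the call of Cx3cr1 was lost without OSA replicate 1 (edgeR adjusted p = 0.0508).

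Macrophage genes were lower in dendritic barcodes, whose C1q sum the rule limits to 2. Of the 10 macrophage markers 9 were lower. Pf4, a platelet-type chemokine that resident macrophages make, averaged 28.2 ± 13.5 CPM in dendritic and 2219 ± 886 CPM in macrophage barcodes (log2 change -5.87 ± 0.33). Folr2, Lyve1 and Cbr2, markers of resident macrophages, were lower by log2 changes of -6.41 ± 0.46, -5.32 ± 0.35 and -5.80 ± 0.40. All of them passed the filter on low counts only through their macrophage sums, so their direction was fixed before the test. Of 12 genes of the lipid-associated list, 8 were lower, of which 5 stayed called without OSA replicate 3, among them Apoe (185 ± 166 CPM in dendritic and 6756 ± 2632 CPM in macrophage barcodes), Gpnmb, Trem2 and Spp1, the last of which lost its call without OSA replicate 1 (edgeR adjusted p = 0.0707). Of 22 ribosomal protein genes 21 passed as higher, with a median log2 change of 0.49, and 7 of the 21 stayed called without OSA replicate 1 and 8 with the C1q sum held at 0.

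**Figure D4:**
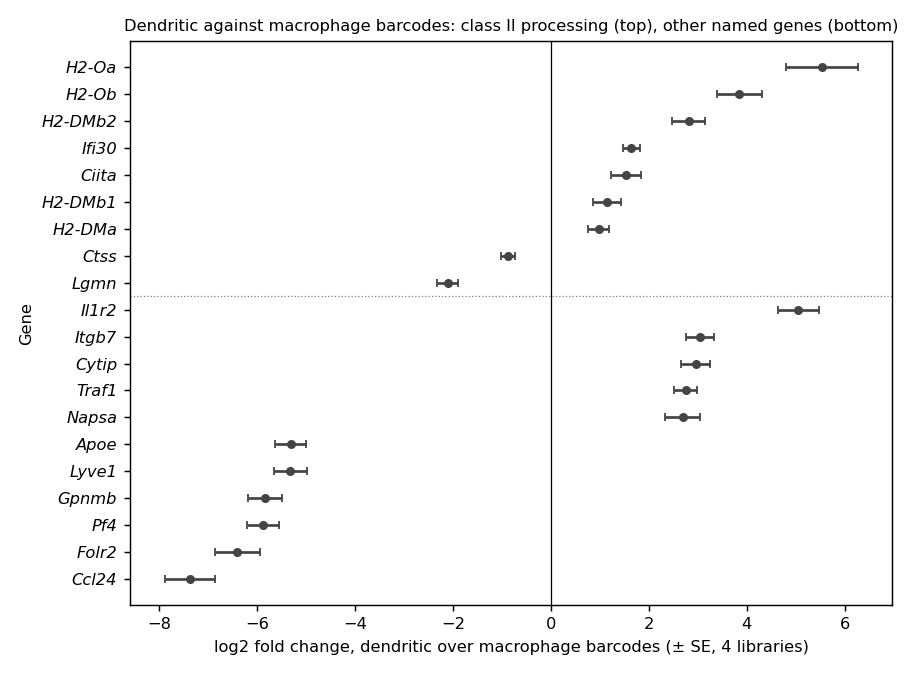
Fold change of dendritic over macrophage barcodes on the log2 scale for class II processing genes that passed the test (above the dotted line) and other named genes (below it), as points with the SE of the fit over 4 libraries. H2-Oa lies at 5.53 and Ciita at 1.54 on the higher side, and Ctss and Lgmn, with Apoe to Ccl24, lie on the lower side.

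Monocytes, which also give rise to dendritic-like cells, were taken by 3 or more UMIs of Ly6c2, Plac8, Chil3 and Vcan, and held 41, 21 and 87 barcodes in the OSA libraries and 21 in the control. That gate had no class II limit, so class II processing is tied to the choice of the members here. It also held other cells, since Gzma, a cytotoxic granule enzyme of T and NK cells, averaged 446 ± 555 CPM in monocyte and 1.28 ± 2.55 CPM in dendritic barcodes, and 7 of 10 fibroblast markers were lower in dendritic barcodes. Of 4212 genes tested, 606 passed (14.4%), 282 higher (6.7%) and 324 lower (7.69%) in dendritic than in monocyte barcodes, and 360 passed without OSA replicate 3. Mgl2 was 112, 390 and 290 CPM in OSA dendritic barcodes and 442 CPM in control dendritic barcodes, and had 0 UMIs in the monocyte barcodes of all 4 libraries. Clec10a, Batf3 and Mrc1, a mannose receptor, were higher by log2 changes of 3.53 ± 0.43, 3.46 ± 0.35 and 3.79 ± 0.55. Ciita averaged 124 ± 33.0 CPM in dendritic and 6.12 ± 7.25 CPM in monocyte barcodes. Mgl2, Clec10a, Batf3, Mrc1 and Ciita passed the filter on low counts only through their dendritic sums, so their direction was fixed before the test. Ace, of non-classical monocytes, and Hp, haptoglobin, were lower by log2 changes of -3.41 ± 0.48 and -4.27 ± 0.32. For Ace the filter was passed only through monocyte sums.

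Members of the OSA libraries were last set against those of the control library. In the edgeR fit the spread came from the OSA libraries alone, with 2 residual degrees of freedom. The control, a single library with 6 members, was assumed to vary like them. Of 5920 genes tested, 34 passed (0.574%), 8 higher (0.135%) and 26 lower (0.439%) in OSA than in control members, and 705 had an unadjusted p under 0.05. Without OSA replicate 1, 2 or 3 all 34 genes kept the sign of their log2 change, and each of these fits kept the same control library. Leaving out an OSA replicate thus cannot show how far the calls rest on that library.

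Il1b and Cxcl2 were higher in OSA members. Il1b had 237, 371 and 709 UMIs in OSA members, or 1101, 1032 and 1657 TMM-scaled CPM, and 21 UMIs or 252 CPM in control members (log2 change 2.33 ± 0.38, edgeR adjusted p = 0.00243). Cxcl2 had 191, 235 and 416 UMIs in OSA members, or 887, 654 and 972 CPM, and 10 UMIs or 120 CPM in control members (log2 change 2.80 ± 0.43, edgeR adjusted p = 0.000942). For both genes each OSA library lay above the single control library. How many of all tested genes showed such a pattern was not counted. UMIs of Il1b were found in 12 of 16, 18 of 30 and 41 of 52 OSA members and in 4 of 6 control members, and those of Cxcl2 in 9, 17 and 34 OSA members and 3 control members. With the stricter gate of 3 or more marker UMIs, both calls were lost (edgeR adjusted p = 0.152 for Il1b and 0.535 for Cxcl2), and so they were when 10 counts were asked of each library (0.0611 for both). Both stayed called without the members rich in other cell types' transcripts.

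Both genes were also looked at within the cDC2-like members, a part of the members tested above. There Il1b was 1452, 1235 and 2029 CPM in the OSA libraries and 335 CPM in the control. Cxcl2 was 1131, 1116 and 1290 CPM in the OSA libraries and 16.8 CPM in the control. These CPM are without TMM scaling. The control Cxcl2 level is 1 UMI, held by the member called a doublet. Of the 10 control UMIs of Cxcl2, 7 lay in the unresolved member. With cDC2-like members alone, 15 genes passed, and Il1b and Cxcl2 were among them.

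Levels in other barcodes of the same libraries are given on the scale of unscaled CPM. In monocyte barcodes Il1b was 1578, 715 and 809 CPM in the OSA libraries and 209 CPM in the control. Cxcl2 in monocyte barcodes was 3080, 666 and 2191 CPM in the OSA libraries and 209 CPM in the control, so it was higher there too. The OSA changes of dendritic and monocyte barcodes were not compared by a test. In macrophage barcodes Cxcl2 was 4765, 5539 and 3414 CPM in the OSA libraries and 3390 CPM in the control. Macrophage Il1b was 277, 140 and 189 CPM in the OSA libraries and 75.8 CPM in the control. Barcodes with 50 or more UMIs of S100a8 and S100a9, which mark neutrophils, numbered 123, 516 and 135 in the OSA libraries and 19 in the control, and held Il1b at 5843, 1165 and 5055 CPM in the OSA libraries and 7450 CPM in the control. In endothelial barcodes, which gauge free RNA, Il1b was 7.61, 7.82 and 14.9 CPM in the OSA libraries and 0.950 CPM in the control, and Cxcl2 was 54.6, 57.8 and 181 CPM in the OSA libraries and 29.1 CPM in the control. Each member level lay above the endothelial level of its library, nearest in control Cxcl2, which was 115 unscaled CPM in members. S100a8 had 0, 19 and 0 UMIs in OSA members and 0 in control members, and in OSA replicate 2 it was found in 46.7% of members and 20.2% of endothelial barcodes. The part of free RNA and of neutrophil transcripts in the result was not tested.

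Fyn, a Src-family kinase, was 562, 620 and 601 CPM in OSA members and 108 CPM in control members (log2 change 2.46 ± 0.44, edgeR adjusted p = 0.00418), and its call was lost with the stricter gate (edgeR adjusted p = 0.0507) and with cDC2-like members alone (0.0674). Antxr2, an anthrax toxin receptor that binds matrix proteins, was 562, 415 and 332 CPM in OSA members and 83.8 CPM in control members (log2 change 2.36 ± 0.52, edgeR adjusted p = 0.0295). Plac8, a small cysteine-rich protein of monocytes and pDC, had 49, 101 and 194 UMIs in OSA members and 0 in control members (at least 8.92-fold higher, with the control library set to a floor of 3 counts). It was highest in subtypes of which the control had 0 members, at 1928 CPM in pDC-like and 492 CPM in cDC1-like members, and was 140 CPM in cDC2-like members. Stat4, which carries interleukin 12 signals, and Htr7, a serotonin receptor, also had 0 control UMIs, and were at least 4.18-fold and 3.72-fold higher. Plac8, Stat4 and Htr7 thus passed the filter on low counts through OSA libraries alone, so their direction was fixed before the test. Tamalin, a scaffold protein, had 51, 61 and 85 UMIs in OSA members and 1 in control members, a ratio of 16.4 with a 95% counting interval of 2.91 to 651. The calls of Antxr2, Plac8, Tamalin, Stat4 and Htr7 were lost with DESeq2 and with the stricter gate, those of Antxr2, Plac8, Tamalin and Stat4 also with cDC2-like members alone, and those of Antxr2, Plac8, Stat4 and Htr7 also without the members rich in other cell types' markers.

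Most genes that were lower in OSA members rested on 2 of the 6 control members. For 22 of the 26, the control member rich in Schwann markers and the one rich in fibroblast markers held more than 50% of the control UMIs. For 20 of the 26, 1 control member alone did. The Schwann-rich and the fibroblast-rich member held 16561 and 22570 of all 86983 UMIs of control members, so 50% lies near their share of all UMIs. Igfbp6, a growth factor binding protein, had 25, 31 and 79 UMIs in OSA members and 95 in control members, of which 63 and 30 were in those 2. Igf1, Lum, Mfap5 and Il6 had 16, 15, 46 and 17 UMIs in control members. The fibroblast-rich member held 16, 13, 44 and 16 of them. Igf1, Lum and Il6 passed the filter on low counts through the control library alone, so their direction was fixed before the test. When all 9 members rich in other cell types' markers were left out, 21 genes passed, 8 of the 34 stayed called, and Igfbp6 had a log2 change of 1.11.

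Irf1 and Atf3 were spread over all 6 control members and stayed called when the 9 were left out. Irf1, a transcription factor induced by interferon, was 186, 136 and 108 CPM in OSA members and 539 CPM in control members (log2 change -1.94 ± 0.39, edgeR adjusted p = 0.0122), and each control member had 6 to 9 UMIs of it. Atf3, a stress-induced factor, was 1050, 821 and 664 CPM in OSA members and 2863 CPM in control members (log2 change -1.77 ± 0.25, edgeR adjusted p = 0.000499), with 3 to 72 UMIs in each control member. Fos was 1900, 1244 and 1940 CPM in OSA members and 4875 CPM in control members (log2 change -1.53 ± 0.24, edgeR adjusted p = 0.00229). The same pair of control members held 95 and 180 of the 407 control UMIs of Fos, and its call was lost without the members rich in other markers (edgeR adjusted p = 0.256). All 15 tested genes of the immediate early list had log2 changes below 0, with a median of -1.08 against 0.14 for all genes, and Atf3 and Fos passed. In macrophage barcodes Atf3 was 1411, 1715 and 760 unscaled CPM in the OSA libraries and 2446 in the control, and in endothelial barcodes it was 1000, 856 and 784 in the OSA libraries and 1125 in the control. Immediate early genes are also known to respond to tissue dissociation, whose part in the result was not tested. With cDC2-like members alone, the calls of Irf1, Atf3 and Fos were lost (edgeR adjusted p = 0.118 for Irf1, 0.211 for Atf3 and 0.118 for Fos). All 3 calls were also lost with the C1q sum held at 0 (edgeR adjusted p = 0.186 for Irf1, 0.459 for Atf3 and 0.339 for Fos) and with 10 counts asked of each library (0.160, 0.0611 and 0.111), and that of Irf1 with DESeq2 and with the stricter gate.

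**Figure D5:**
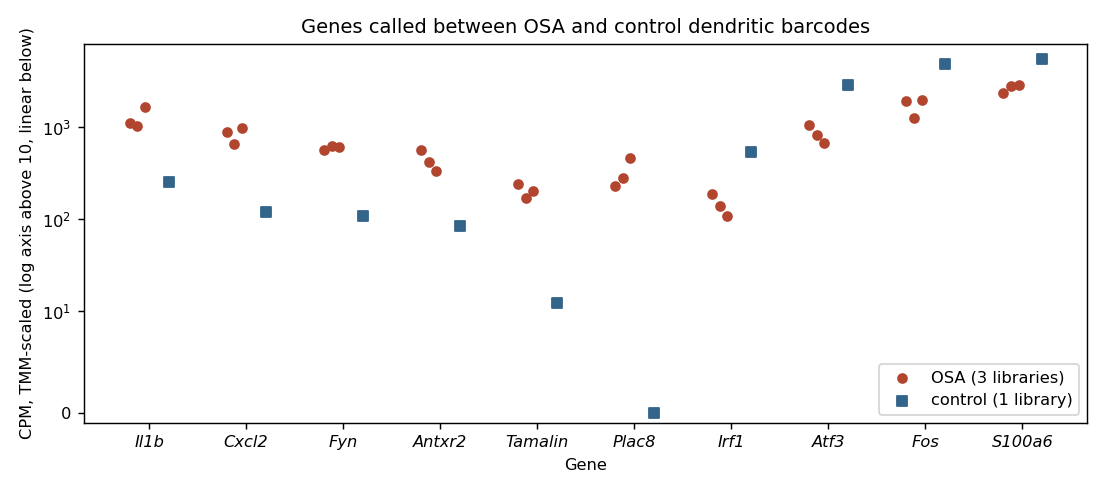
TMM-scaled CPM of 10 genes called between OSA and control dendritic barcodes, with the 3 OSA libraries as circles and the control library as a square, on a log axis above 10 CPM and a linear one below. Il1b to Plac8 lie higher in every OSA library and Irf1 to S100a6 lower, and Plac8 is at 0 in the control.

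With 0.574% of all genes called in this comparison, a count of 0 in a list says little about it. Of 10 tested class II processing genes 0 passed, with a median log2 change of 0.24, and H2-DMb1 was 632, 801 and 767 CPM in OSA members and 611 CPM in control members. Of 8 tested costimulation and inhibition genes 0 passed, and of 15 tested hypoxia and glycolysis genes 0 passed, with 12 above 0 and a median of 0.58. Cd80 was 97.5, 153 and 185 CPM in OSA members and 83.8 CPM in control members (log2 change 0.81 ± 0.59, edgeR adjusted p = 0.616), so a difference was not detectable with 6 control members. Irf8, at 293, 211 and 220 CPM in OSA members and 71.9 CPM in control members, did not pass (edgeR adjusted p = 0.212), and the 12 cDC1-like and 6 pDC-like members, in which it was highest, were all in OSA libraries.

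Whether the OSA change differed between dendritic and macrophage barcodes was tested by the interaction of gate and group. Of 8674 genes, 26 passed (0.3%), 3 higher (0.0346%) and 23 lower (0.265%), and 63, 89 and 98 passed without OSA replicate 1, 2 or 3. Cxcl2 was among the 3, with an interaction of 2.49 ± 0.46 on the log2 scale (edgeR adjusted p = 0.0245), as was Fyn, which was 94.5, 106 and 80.2 unscaled CPM in OSA macrophages and 97.2 CPM in control macrophages. Il1b did not pass, with an interaction of 1.04 ± 0.53 (edgeR adjusted p = 0.533). The calls of Cxcl2 and Fyn were lost under DESeq2 (DESeq2 adjusted p = 0.109 and 0.204), with the stricter gate (edgeR adjusted p = 0.672 and 0.129) and without doublets (0.370 and 0.168). With members rich in other cell types' markers left out 0 genes passed the interaction by edgeR's test, and 613 had an unadjusted p under 0.05.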

How the data were processed

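Libraries of dissociated genioglossus were 10x Genomics droplet libraries, per the labels. The authors deposited raw UMI counts, whole numbers for 33696 genes per called barcode. Per the file headers the matrices come from Cell Ranger 9.0.1, and per the submitters' processing notes the build was GRCm39 (mm39). The gates above were applied to the counts of 4 libraries, and 17 to 31 barcodes per library with under 300 genes were left out. Scrublet (scanpy 1.11.5, expected doublet rate 0.1) called doublets, which were kept. Counts were summed per library and gate, filtered with filterByExpr, scaled by TMM and tested by edgeR (version 4.0.16 in R 4.3.3, robust quasi-likelihood), and DESeq2 1.42.0 was an alternative. Genes of the gates were left out of the calls. The fits were tested on simulated data. Named genes were the 10 highest and 10 lowest called genes by log2 change whose direction was alike in all libraries and whose mean log2 CPM reached 5 (OSA) or 6 (other cells), plus called list members. Promoter windows were matched by symbol. The members, lists and tests were chosen with earlier results of these data known. Results of 1 called gene are not reported here.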

Additional observations from a re-analysis of the deposited data

Results flagged for a closer look

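The OSA change of the genes below differed between dendritic and macrophage barcodes by the interaction test (edgeR's quasi-likelihood test, adjusted p under 0.05). The interaction is the log2 change of OSA over control in dendritic barcodes minus that in macrophage barcodes. It was 2.49 for Cxcl2 and 2.63 for Fyn. It was -4.33 for Igfbp6, -3.75 for Gstm1, -4.33 for Igf1, -4.49 for Ccdc80, -3.51 for Mfap5 and -2.17 for Gsn. For A330069E16Rik (-10.97) and Vcam1 (-10.40), all OSA members had 0 UMIs, so the fitted value depends on the prior count. These were at least 44.2-fold and 18.4-fold lower in OSA than in control members against a floor of 3 counts per library, and all 36 and 15 of their control UMIs were in 1 member, the one called a doublet. That member also held 53 of 61 Gstm1, 13 of 13 Ccdc80 and 123 of 170 Gsn UMIs of the control. Without doublets the calls of Cxcl2, Fyn, Gstm1, Igf1, Mfap5 and Gsn were lost, with an interaction of 5.4 for Igf1, -0.07 for Mfap5, -1.46 for Gstm1 and -0.96 for Gsn. Without the members rich in other cell types' markers those 6 calls and those of Igfbp6 and Ccdc80 were lost, with 5.43 for Igf1, 7.48 for Mfap5, 5.09 for Ccdc80, -0.11 for Igfbp6, -1.44 for Gstm1 and -0.65 for Gsn. A330069E16Rik and Vcam1 were not tested in either setting, nor Ccdc80 without doublets, because they did not pass the filter on low counts there. The calls of Cxcl2, Fyn and Ccdc80 were also lost with DESeq2, and with the stricter gate those of Cxcl2, Fyn, Ccdc80, Gsn, A330069E16Rik and Vcam1.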

How the results depend on the processing

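The OSA minus control share stayed above 0 in all alternatives run, from 0.0887 percentage points (thinned to 2000 UMIs) to 0.257 (without OSA replicate 1) of all barcodes. Genes called between OSA and control members were 122 with no filter, 0 with 10 counts in each library (173 at an unadjusted p under 0.05), 12 with DESeq2, 10 with the stricter gate, 21 without members rich in other cell types' markers and 15 with cDC2-like members alone, and 92 to 122 with an OSA replicate left out. Against macrophages they were 337 with 10 counts in each library and 548 with a C1q sum of 0, and 505 to 1205 with a library left out. Against monocytes they were 1023 with no filter, 198 with 10 counts in each and 325 with a C1q sum of 0, and 360 to 777 with a library left out. The interaction called 80 with no filter, 3 with 10 counts in each, 11 with the stricter gate, 40 with a C1q sum of 0, 3 without doublets and 0 without members rich in other cell types' markers, and 63 to 98 with an OSA replicate left out. Thinned members had mean OSA shares of 18.2% cDC2-like and 17.6% mature-like. The cause of these shifts was not tested. Without the members rich in other cell types' markers, Igfbp6, Gsn and Mfap5 turned to 1.11, 0.055 and 6.995 in OSA minus control, and the interaction turned to 7.08 for Col3a1, 5.09 for Ccdc80, 5.46 for Tgfbr3, 7.48 for Mfap5, 0.037 for Mt3, 5.43 for Igf1 and 1.16 for Cd63. Without doublets Mfap5 turned to 1.02 in OSA minus control, and the interaction to 5.4 for Igf1 and 0.58 for Pi16, and with a C1q sum of 0 to 0.00018 for Mt3. No paired analysis was possible because the groups compared share only replicate number 2. The alternatives on other cell types' markers and on cDC2-like members were chosen after seeing the data. The comparison with the control rests on 1 library and 6 members.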
